A study of Mus musculus with 10 samples.

Results

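The genes described here are 10 widely used markers of monocytes and macrophages: Adgre1, Cd68, Lyz2, Mrc1, Ly6c2, Cd14, Chil3, Retnla, Cd9 and Ms4a7. They were chosen by name, for their common use as identity and polarization markers, out of 17606 genes, and the deposited tables held them as 17 of 61685 RefSeq mRNA models. RNA sequencing was done on 10 libraries of cells that the labels call EPC, an abbreviation they do not spell out, sorted by flow cytometry from wild-type female C3H/HeN mice. In all groups the mice had been given SCC7, a squamous cell carcinoma line of the mouse, and the labels give HNSCC (head and neck squamous cell carcinoma) as the disease state. The groups were splenic CD45-negative cells (n = 3), splenic CD45-positive cells (n = 3) and tumor CD45-positive cells (n = 4). Mice without a tumor and tumor CD45-negative cells were not analysed here, and neither the age of the mice nor the number of mice behind a library is given in the labels. CD45, encoded by Ptprc, is the membrane phosphatase of white blood cells.

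Monocytes are made in the bone marrow, circulate, and can enter tissues and tumors, where they mature into macrophages. Classical mouse monocytes carry the surface protein Ly6C, which falls as they mature, while F4/80, the product of Adgre1, and the lysosomal protein CD68 rise. Macrophages stimulated with interleukin 4 are known for making the chitinase-like protein Chil3 (Ym1), the secreted protein Retnla (Fizz1), the mannose receptor Mrc1 (CD206) and arginase 1. Chil3 is also an abundant product of neutrophils and their precursors, and lysozyme is shared by monocytes, macrophages and neutrophils, so neither is restricted to macrophages.

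Expression values were read as FPKM, a unit that the labels do not name. FPKM is fragments scaled to transcript length and to the number of mapped fragments, which can be compared between genes because it is divided by length. On that reading low values implied about 17800000 to 20900000 fragments per library, so that 1 FPKM of a transcript of 1 kilobase rested on about 17.8 to 20.9 fragments. The hemoglobin share of all FPKM was 62.5% to 63.5% in CD45-negative spleen, 29.3% to 52.1% in CD45-positive spleen and 1.80% to 10.4% in tumor. Ptprc itself was at 1.63, 2.57 and 2.31 FPKM in the CD45-negative libraries, at 265, 39.2 and 153 FPKM in the splenic CD45-positive libraries and at 59.4 to 92.5 FPKM in the tumor libraries, so the gate was seen in the RNA. Splenic CD45-positive replicate 2 stood apart from replicates 1 and 3, and tumor replicate 1 from replicates 2 to 4. Tumor replicates 2 to 4 differed by little more than approximate counting noise: a chi-square per gene averaged 1.56 to 2.42 between them, against 8.81 to 103 between the other pairs of libraries of a group. They were kept as 3 libraries, and results that changed when they were averaged into 1 are named. The labels do not say whether libraries of a group came from separate mice, and the p-values reflect how far the libraries of a group spread, whether for biological or technical reasons.

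Together the 10 genes made up 0.0028% to 0.005% of all FPKM in CD45-negative spleen, 0.183% to 0.354% in CD45-positive spleen and 1.88% to 3.40% in tumor. Lyz2 made up 64.8% to 88.6% of that share in every library. In the tumor libraries Lyz2 ranked between 1 and 3 among all 17606 genes by FPKM, while Retnla was at or near 0 in all 10 libraries. Between tumor and splenic CD45-positive cells the members went different ways: 7 were higher in tumor, Chil3 and Ly6c2 were lower, and Retnla was too low to be tested.

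**Figure D1:**
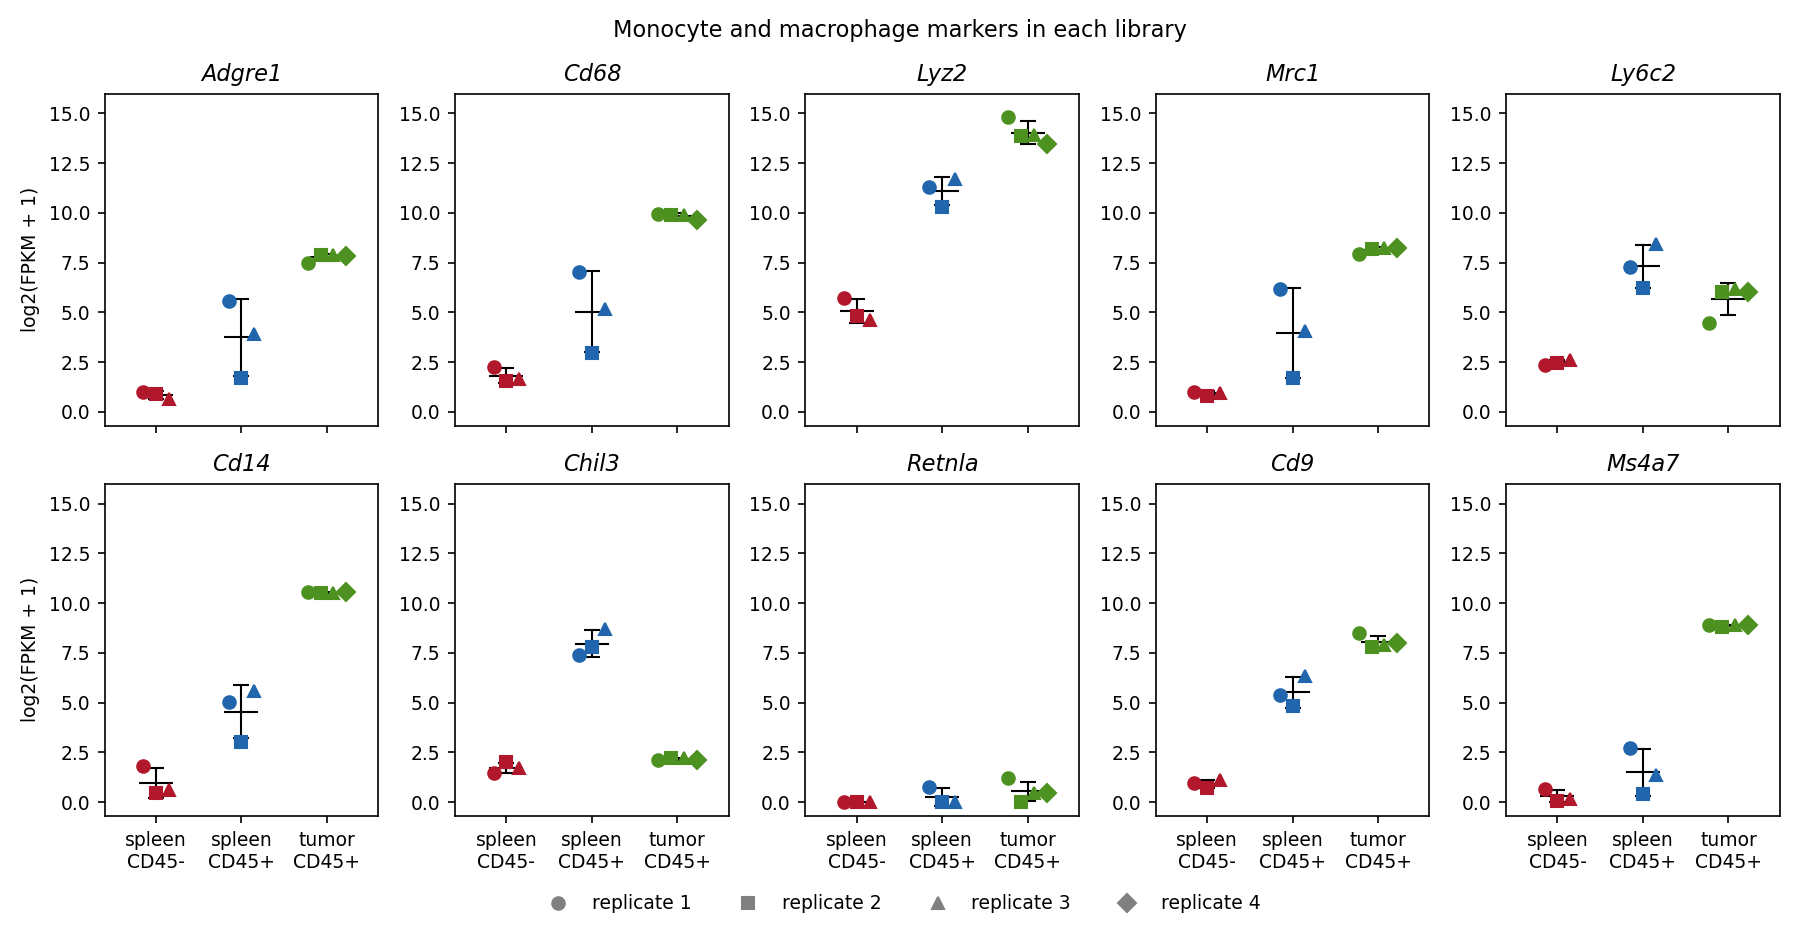
Expression of the 10 marker genes in each library, as FPKM on a log2(FPKM + 1) axis; each point is a library, and bars give the mean and SD of the log2 values of a group. Lyz2 reaches 29160 FPKM in tumor replicate 1, Chil3 and Ly6c2 are highest in splenic CD45-positive cells, and Retnla lies at or near 0 in all libraries.

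The first comparison, splenic CD45-positive against splenic CD45-negative cells, asks how far the CD45 gate separated cells with these markers within the spleen. All 8 members that could be tested were higher in the CD45-positive cells, led by Chil3, Lyz2, Ly6c2 and Cd9. A gene was tested where it reached 1 FPKM in at least 3 of the libraries compared. It was called at a Benjamini-Hochberg adjusted p below 0.05 from limma on log2(FPKM + 1). Adgre1, Mrc1, Cd9 and Cd14 reached 1 FPKM in only 1 CD45-negative library. They passed this filter through the CD45-positive libraries and could hardly have been called lower. Among all 9728 genes tested 50.5% were called higher and 5.01% lower (55.5% either way), so a call of higher was common in this comparison; the members' median difference was 4.09 on the log2 scale against 0.67 over all genes tested. Scaling moved that background: 91.0% of the called genes were higher as deposited, against 63.0% with trimmed-mean scaling and 50.8% with median-ratio scaling.

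The second comparison, tumor against splenic CD45-positive cells, keeps the gate and changes the tissue. Of 9 members tested, 7 were higher in tumor and 2 were lower. Over all 11463 genes tested 37.7% were called higher and 26.0% lower (63.8% either way). Ms4a7 was below 1 FPKM in splenic CD45-positive replicate 2, so it needed the tumor libraries to pass the filter. The members' median difference was 4.04 on the log2 scale against 0.20 over all genes tested. The share of called genes that were higher was 59.2% as deposited, 70.6% after scaling to a common sum and 40.6% without the hemoglobin genes.

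The comparison of tumor CD45-positive with splenic CD45-negative cells changes tissue and gate together, which cannot be told apart, and it shares its libraries with the other comparisons. All 9 members tested were called higher in tumor, against 67.5% higher and 22.5% lower over 11208 genes tested (90.0% either way). Adgre1, Mrc1, Cd9, Cd14 and Ms4a7 reached 1 FPKM in at most 1 CD45-negative library. They passed the filter through the tumor libraries and could hardly have been called lower. Only 52.3% of called genes were higher with trimmed-mean scaling, 51.5% with median-ratio scaling and 60.6% without hemoglobin genes, against 75.0% as deposited. The differences of Cd14 (9.57, adjusted p = 2.58e-09), Lyz2 (8.96, adjusted p = 1.41e-08) and Cd68 (8.04, adjusted p = 2.85e-10) stood with that of Ms4a7 (8.59, adjusted p = 7.42e-11) at the top on the log2 scale, and Mrc1 (7.22, adjusted p = 6.31e-11), Cd9 (7.14, adjusted p = 5.2e-10) and Adgre1 (6.93, adjusted p = 1.68e-10) followed. The call of Chil3 turned with the scaling and is described with its values. In bulk libraries, fewer cells of a type and less RNA per cell cannot be told apart, and this holds for each difference given here.

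**Figure D2:**
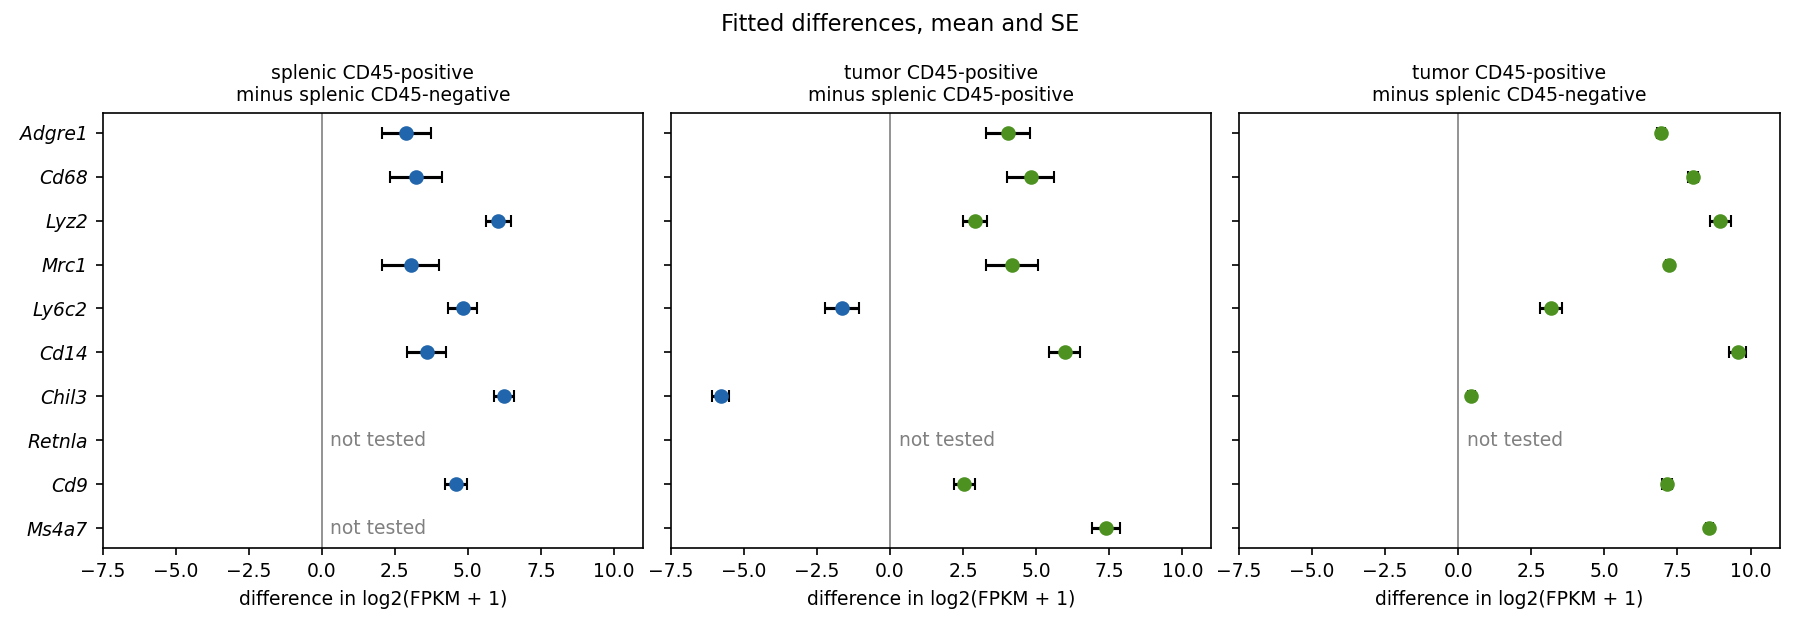
Fitted differences on the log2(FPKM + 1) scale with standard errors for each member in the 3 comparisons; a point right of 0 is higher in the group named first. Chil3 and Ly6c2 are the members left of 0 in tumor against splenic CD45-positive cells; Retnla was tested in none, and Ms4a7 not within the spleen.

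Adgre1 encodes F4/80, an adhesion-type receptor that is the standard surface marker of mouse macrophages (chr17:57358581-57483529, GRCm38.p6). It was at 1.01, 0.850 and 0.540 FPKM in splenic CD45-negative replicates 1 to 3, at 46.7, 2.27 and 14.1 FPKM in splenic CD45-positive replicates 1 to 3, and at 179, 236, 232 and 227 FPKM in tumor replicates 1 to 4. The 3 groups did not overlap, but splenic CD45-positive replicate 2 lay close to the CD45-negative libraries and replicate 1 far above them. The group means were 0.80 ± 0.239 (SD, n = 3), 21.0 ± 23.0 (SD, n = 3) and 219 ± 26.4 FPKM (SD, n = 4). On the log2 scale Adgre1 was 2.90 higher in splenic CD45-positive than CD45-negative cells (SE 0.845, adjusted p = 0.0216) and 4.04 higher in tumor than in splenic CD45-positive cells (SE 0.767, adjusted p = 0.00238).

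Cd68 encodes a glycoprotein of lysosomes and endosomes that is rich in phagocytes (chr11:69664213-69666170). It was at 3.70, 1.89 and 2.15 FPKM in splenic CD45-negative cells, at 128, 6.63 and 34.6 FPKM in splenic CD45-positive cells, and at 972, 963, 965 and 798 FPKM in tumor cells. The order of the 3 splenic CD45-positive libraries was the one seen for Adgre1, and the lowest of them was above every CD45-negative library. The mean was 925 ± 84.3 FPKM in tumor (SD, n = 4), 16.4 times the splenic CD45-positive mean of 56.5 ± 63.8 FPKM (SD, n = 3). The differences were 3.23 between the splenic groups (SE 0.898, adjusted p = 0.0179) and 4.82 between tumor and splenic CD45-positive cells (SE 0.805, adjusted p = 0.00126), both on the log2 scale.

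Mrc1 encodes the mannose receptor CD206, an endocytic lectin of tissue and alternatively activated macrophages (chr2:14229414-14332023). Its values were 1.02, 0.760 and 0.920 FPKM in splenic CD45-negative cells, 72.2, 2.21 and 15.4 FPKM in splenic CD45-positive cells, and 239, 293, 301 and 302 FPKM in tumor cells. Mrc1 thus ran beside Adgre1 in every library, and the tumor libraries were all above the highest splenic library. It was 3.05 higher in splenic CD45-positive than CD45-negative cells on the log2 scale (SE 0.973, adjusted p = 0.0305) and 4.18 higher in tumor than in splenic CD45-positive cells (SE 0.887, adjusted p = 0.0041).

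The calls of Adgre1, Cd68 and Mrc1 between the splenic groups were the least stable of the members. Each missed the threshold with median-ratio scaling and without splenic CD45-positive replicate 3 or CD45-negative replicate 2 (Adgre1 and Mrc1 without any of the CD45-negative libraries), with adjusted p up to 0.0645 for Adgre1, 0.0566 for Cd68 and 0.0858 for Mrc1 over the alternatives. Without splenic CD45-positive replicate 2 the 3 differences were the largest obtained by leaving out a library, 3.91, 4.28 and 4.19 on the log2 scale, and without replicate 1 the smallest, 1.98, 2.24 and 1.94. In tumor against splenic CD45-positive cells the same 3 genes were called in all 20 alternatives, with differences of 3.02 to 4.96 for Adgre1, 3.77 to 5.81 for Cd68 and 3.03 to 5.29 for Mrc1 when 1 library was left out. Their lowest values came without splenic CD45-positive replicate 2 and their highest without replicate 1.

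Ms4a7 encodes a membrane protein of the family that also holds the B cell protein CD20, and it is used as a marker of mature macrophages (chr19:11321039-11336146). It was at 0.550, 0.04 and 0.130 FPKM in splenic CD45-negative cells and at 5.65, 0.310 and 1.53 FPKM in splenic CD45-positive cells, values that overlapped and were too low to be tested. In tumor it was at 480, 450, 479 and 472 FPKM. The tumor mean of 470 ± 14.2 FPKM (SD, n = 4) was 188 times the splenic CD45-positive mean of 2.50 ± 2.80 FPKM (SD, n = 3), the largest ratio of means among the members in that comparison. The fitted difference was 7.39 on the log2 scale (SE 0.473, adjusted p = 8.3e-06). Against splenic CD45-negative cells the filter was passed through the tumor libraries alone, so Ms4a7 could only be called higher.

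Cd14 encodes the co-receptor that passes bacterial lipopolysaccharide to TLR4 and is carried by monocytes and macrophages (on chromosome 18, from 36725064 to 36726815). It was at 2.55, 0.370 and 0.510 FPKM in splenic CD45-negative cells and at 31.7, 7.15 and 47.1 FPKM in splenic CD45-positive cells. In tumor it was at 1506, 1439, 1472 and 1491 FPKM, with all 4 libraries close together. The tumor mean, 1477 ± 28.9 FPKM (SD, n = 4), was 51.5 times the splenic CD45-positive mean of 28.7 ± 20.1 FPKM (SD, n = 3). Cd14 differed by 3.59 between the splenic groups (SE 0.678, adjusted p = 0.00393) and by 5.98 between tumor and splenic CD45-positive cells (SE 0.537, adjusted p = 4.86e-05) on the log2 scale, and both calls were kept in every alternative run.

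Ly6c2 encodes the Ly6C antigen by which classical monocytes are recognised (chr15:75108161-75112066). Its values were 4.19, 4.46 and 5.10 FPKM in splenic CD45-negative cells, 155, 74.1 and 339 FPKM in splenic CD45-positive cells, and 20.7, 64.3, 70.2 and 63.1 FPKM in tumor cells. The highest tumor value and the lowest splenic CD45-positive value were close, and tumor replicate 1 was 0.322 times the median of replicates 2 to 4. The means were 4.58 ± 0.467 (SD, n = 3), 189 ± 136 (SD, n = 3) and 54.6 ± 22.8 FPKM (SD, n = 4). Ly6c2 was 4.83 higher in splenic CD45-positive than CD45-negative cells on the log2 scale (SE 0.493, adjusted p = 0.000738). In tumor it fell by 1.65 against splenic CD45-positive cells (SE 0.585, adjusted p = 0.0377), a call lost in 7 of 20 alternatives, with adjusted p up to 0.135. The difference was -1.10 without splenic CD45-positive replicate 3, -1.25 without tumor replicate 1 and -2.05 with tumor replicates 2 to 4 averaged, and none of these passed the threshold. Against splenic CD45-negative cells tumor Ly6c2 was higher by 3.18 (SE 0.379, adjusted p = 3.54e-05).

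Lyz2 encodes lysozyme M, the bacteriolytic enzyme of phagocytes (chr10:117277541-117282272). It was at 52.2, 27.3 and 23.5 FPKM in splenic CD45-negative cells, at 2514, 1276 and 3302 FPKM in splenic CD45-positive cells and at 29160, 14945, 15342 and 11438 FPKM in tumor cells. The 3 groups were far apart, and tumor replicate 1 was 1.95 times the median of the other tumor libraries. The differences were 6.04 between the splenic groups (SE 0.421, adjusted p = 0.000341) and 2.92 between tumor and splenic CD45-positive cells (SE 0.411, adjusted p = 0.000521) on the log2 scale. Unlike Adgre1, Cd68 and Mrc1, Lyz2 in splenic CD45-positive replicate 2 was still 0.508 times its level in replicate 1.

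Cd9 encodes a tetraspanin, a membrane-organising protein found on macrophages, platelets and several other cells (chr6:125460266-125494760). It was at 0.920, 0.640 and 1.13 FPKM in splenic CD45-negative cells, at 40.2, 27.3 and 80.6 FPKM in splenic CD45-positive cells, and at 356, 225, 240 and 253 FPKM in tumor cells. The groups did not overlap. Cd9 was 4.60 higher in splenic CD45-positive than CD45-negative cells (SE 0.381, adjusted p = 0.000509) and a further 2.54 higher in tumor (SE 0.353, adjusted p = 0.000487) on the log2 scale.

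Chil3, the chitinase-like protein Ym1 (chr3:106147554-106167564), had the opposite order between spleen and tumor. It was at 1.78, 2.98 and 2.24 FPKM in splenic CD45-negative cells, at 165, 224 and 413 FPKM in splenic CD45-positive cells, and at 3.27, 3.68, 3.58 and 3.40 FPKM in tumor cells. Every splenic CD45-positive library was far above every tumor library, and the splenic CD45-positive mean of 267 ± 129 FPKM (SD, n = 3) was 76.7 times the tumor mean of 3.48 ± 0.183 FPKM (SD, n = 4). Chil3 was 6.24 higher in splenic CD45-positive than CD45-negative cells (SE 0.346, adjusted p = 0.000253), the largest difference of a member within the spleen. In tumor it fell by 5.80 against splenic CD45-positive cells (SE 0.289, adjusted p = 2.31e-06), and all 20 alternatives kept that call. Against splenic CD45-negative cells tumor Chil3 was called 0.44 higher (SE 0.119, adjusted p = 0.00655), but its direction depended on scaling: the difference was -0.40 with trimmed-mean scaling (adjusted p = 0.00745), -0.43 with median-ratio scaling (adjusted p = 0.00631) and -0.10 without hemoglobin genes (adjusted p = 0.525).

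Retnla, the resistin-like protein Fizz1 (chr16:48842609-48844461), was listed at 0 in all 3 splenic CD45-negative libraries and in splenic CD45-positive replicates 2 and 3, with 0.680 FPKM in replicate 1. In tumor it was at 1.28, 0, 0.390 and 0.390 FPKM. It passed the filter in no comparison, and its groups overlapped. The markers known from macrophages treated with interleukin 4 therefore did not run together in the tumor libraries: Mrc1 was at 239 to 302 FPKM, Chil3 at 3.27 to 3.68 FPKM and Retnla at or below 1.28 FPKM.

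Chil3 and Ly6c2 were the 2 members lower in tumor than in splenic CD45-positive cells, Cd68 and Mrc1 were a pair with like profiles, and Retnla was near 0, so the stretches in front of these 5 genes are shown for comparison. Each is the 250 bases before the RefSeq transcription start on GRCm38.p6, written 5′ to 3′ on the gene's strand. They are chr11:69666171-69666420 (Cd68, minus strand), chr2:14229164-14229413 (Mrc1, plus strand), chr15:75111938-75112187 (Ly6c2, minus strand), chr3:106167565-106167814 (Chil3, minus strand) and chr16:48842359-48842608 (Retnla, plus strand). Capitals mark matches, on either strand, to GAGGAA (the core bound by PU.1, the myeloid lineage factor), TTGCNNAA (C/EBP factors), the STAT6 palindrome (a factor that acts downstream of the interleukin 4 receptor) or TGANTCA (AP-1).
Cd68: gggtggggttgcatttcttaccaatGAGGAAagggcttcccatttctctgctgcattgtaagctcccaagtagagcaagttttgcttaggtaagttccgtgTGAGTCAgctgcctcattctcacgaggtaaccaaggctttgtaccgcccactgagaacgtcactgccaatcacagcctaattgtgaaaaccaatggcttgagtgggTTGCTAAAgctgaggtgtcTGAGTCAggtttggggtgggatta
Mrc1: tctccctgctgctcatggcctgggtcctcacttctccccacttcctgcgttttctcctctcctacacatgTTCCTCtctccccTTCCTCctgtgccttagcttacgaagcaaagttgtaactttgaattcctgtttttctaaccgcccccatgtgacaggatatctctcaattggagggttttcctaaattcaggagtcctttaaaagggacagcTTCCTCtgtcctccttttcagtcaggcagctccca
Ly6c2: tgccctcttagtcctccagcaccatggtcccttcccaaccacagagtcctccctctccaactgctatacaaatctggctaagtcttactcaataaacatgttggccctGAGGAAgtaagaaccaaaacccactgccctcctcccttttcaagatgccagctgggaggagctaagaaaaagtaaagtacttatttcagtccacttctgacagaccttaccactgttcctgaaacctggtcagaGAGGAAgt
Chil3: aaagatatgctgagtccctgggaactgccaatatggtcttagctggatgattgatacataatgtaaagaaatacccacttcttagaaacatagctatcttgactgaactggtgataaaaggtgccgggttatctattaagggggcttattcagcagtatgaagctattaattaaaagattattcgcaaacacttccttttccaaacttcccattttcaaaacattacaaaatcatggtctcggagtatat
Retnla: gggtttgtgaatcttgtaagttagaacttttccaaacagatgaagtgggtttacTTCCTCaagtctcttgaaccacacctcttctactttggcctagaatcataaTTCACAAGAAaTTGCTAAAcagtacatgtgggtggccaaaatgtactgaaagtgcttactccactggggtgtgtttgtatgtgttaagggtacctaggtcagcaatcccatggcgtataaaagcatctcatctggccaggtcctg
The Cd68 stretch held 1 match to the PU.1 letters, 2 to AP-1 and 1 to C/EBP, and the Mrc1 stretch held 3 to PU.1. The Ly6c2 stretch held 2 matches to the PU.1 letters, and the stretch before a Ly6c2 start farther upstream shares 1 of them. The Chil3 stretch held no match to any of the 4. In the Retnla stretch a STAT6 match from base 145 to 136 before the start stood next to a C/EBP match from base 134 to 127, with a PU.1 match farther upstream. Over 32851 mouse promoter stretches of this length, 23.3% held the PU.1 letters, 9.6% C/EBP, 5.9% STAT6 and 6.7% AP-1, with no motif overlapping another in the sequences printed. Of the 8 members with a stretch in the RefSeq table, 4 held PU.1, 2 C/EBP, 2 STAT6 and 2 AP-1. A match is a string of letters and was not tested for binding.

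The 3 splenic CD45-positive libraries separated the members into distinct patterns. From replicate 1 to replicate 2, Mrc1, Adgre1, Cd68 and Ms4a7 stood at 0.0306 to 0.0549 times the replicate 1 level, Cd14 at 0.225, Ly6c2 at 0.48, Lyz2 at 0.508 and Cd9 at 0.679 times, and Chil3 at 1.35 times. Replicate 3 against replicate 1 gave the same 2 ends, with 0.214 to 0.303 for the first 4 genes and 2.5 for Chil3. Beside this, median ratios were taken over listed genes at 1 FPKM or more in replicates 1 and 3, with no such floor for replicate 2. For replicate 2 against replicate 1 the median was 0.0364 over other tissue macrophage genes, 0.114 over other monocyte genes and 0.116 over B cell markers. It was 0.135 over T and NK cell markers, 1.24 over granulocyte markers and 1.32 over erythroid markers. For replicate 3 against replicate 1 these medians were, in the same order, 0.283, 0.551, 0.775, 0.856, 2.89 and 0.998. Ptprc was at 0.148 times its replicate 1 level in replicate 2 and at 0.576 times in replicate 3. Which of these cells the members' RNA came from was not tested.

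**Figure D3:**
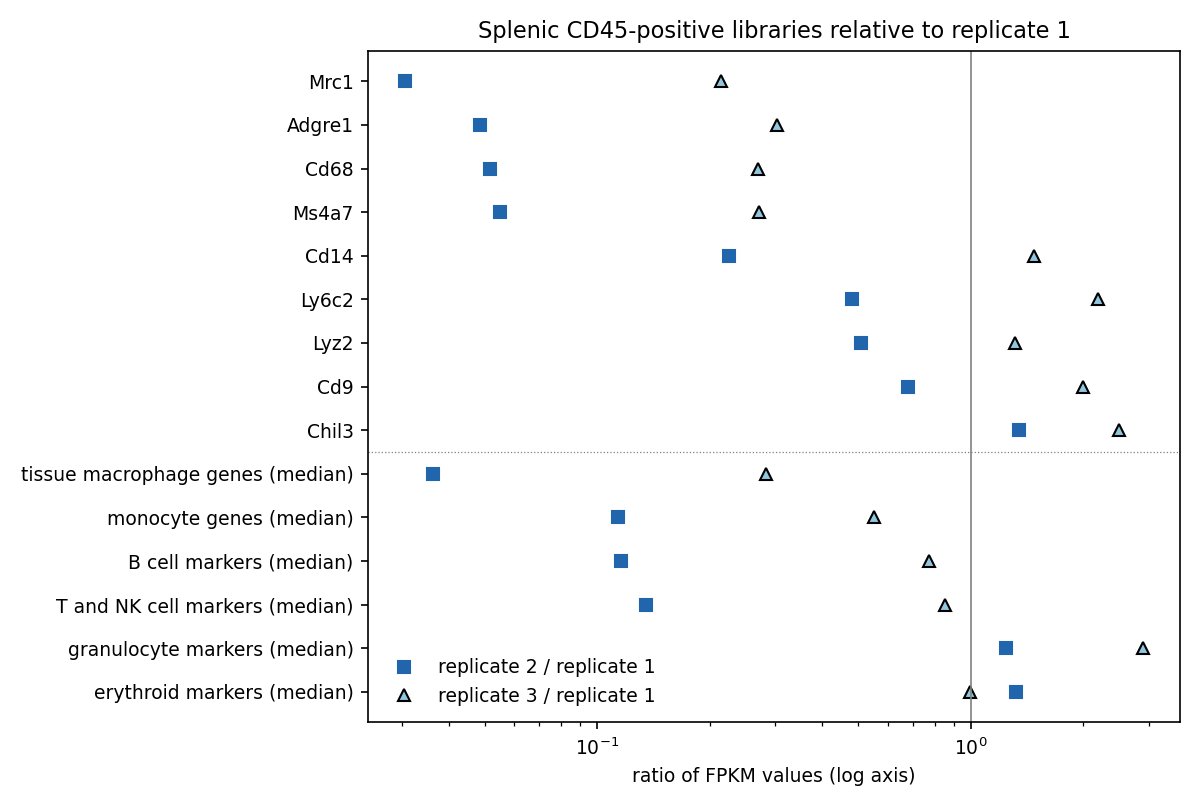
Ratio of FPKM in splenic CD45-positive replicates 2 (squares) and 3 (triangles) to replicate 1, on a log axis, for the members and for the median of marker lists. List medians cover the genes at 1 FPKM or more in replicates 1 and 3. Mrc1, Adgre1, Cd68 and Ms4a7 lie at 0.0306 to 0.0549 in replicate 2, near the tissue macrophage list at 0.0364. Chil3 lies at 1.35 in replicate 2, with the erythroid list at 1.32 and the granulocyte list at 1.24. In replicate 3 Chil3 lies at 2.5, the granulocyte list at 2.89 and the erythroid list at 0.998.

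Set against Lyz2 in the same library, Chil3, Ly6c2, Cd14 and Ms4a7 did not overlap between splenic CD45-positive cells and tumor. Adgre1, Cd68, Mrc1 and Cd9 did overlap. The share of all genes without overlap on this measure was not computed, so the split only describes these values. Per 1000 FPKM of Lyz2, Chil3 was at 65.7, 175 and 125 in splenic CD45-positive cells and at 0.112 to 0.297 in tumor. Ly6c2 was at 61.5, 58.1 and 103 in splenic CD45-positive cells and at 0.711 to 5.52 in tumor. Cd14 was at 12.6, 5.6 and 14.3 in splenic CD45-positive cells and at 51.6 to 130 in tumor, and Ms4a7 was at 0.243 to 2.25 and at 16.5 to 41.3. Cd9 was at 16, 21.4 and 24.4 in splenic CD45-positive cells and at 12.2 to 22.1 in tumor. Adgre1 was at 18.6, 1.78 and 4.28 against 6.15 to 19.9, Cd68 at 51.1, 5.2 and 10.5 against 33.3 to 69.8, and Mrc1 at 28.7, 1.73 and 4.67 against 8.2 to 26.4. In these 3 genes splenic CD45-positive replicate 1 lay within or above the range of the tumor libraries and replicates 2 and 3 lay below it. These ratios carry the high Lyz2 of tumor replicate 1 in their denominator. Lysozyme is shared with neutrophils, and 12 granulocyte markers summed to 22900 to 76100 FPKM in splenic CD45-positive libraries and 66.8 to 1730 FPKM in tumor. The ratios are therefore not levels per macrophage, and which cells the Lyz2 RNA came from was not tested.

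**Figure D4:**
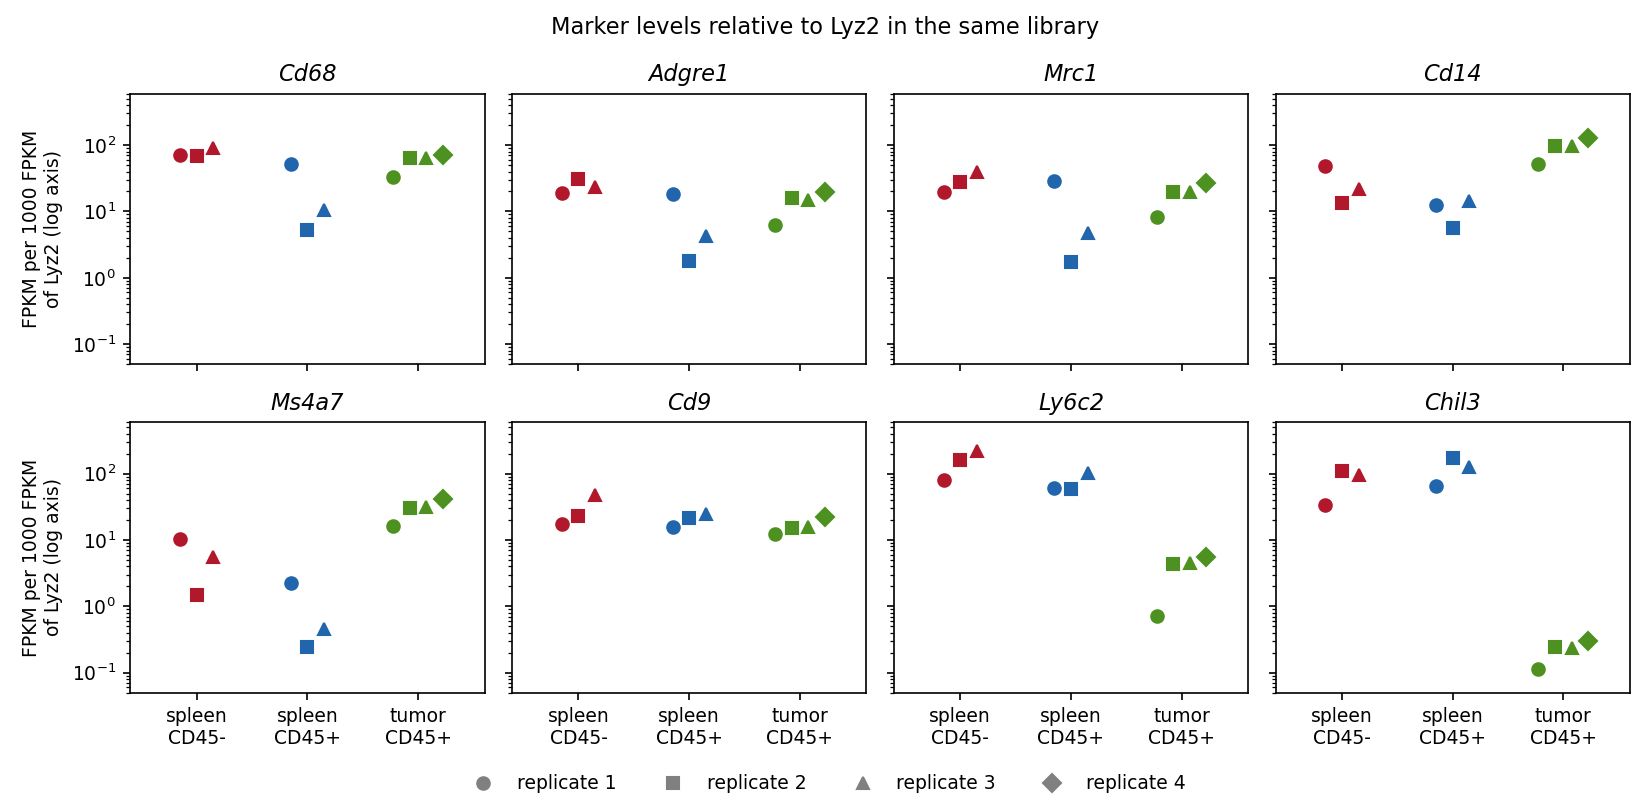
FPKM of 8 members per 1000 FPKM of Lyz2 in each library, on a log axis, by group. Chil3 drops from 65.7 to 175 in splenic CD45-positive cells to 0.112 to 0.297 in tumor cells, while Cd9 stays between 12.2 and 24.4 in both.

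Close relatives of the members were followed beside them. Lyz1, the near-identical second lysozyme gene, was at 0.0371 to 0.0748 of Lyz2 in all libraries, and Ly6c1 was at 0.204 to 0.513 of Ly6c2, so reads may have been split within each pair and the levels of its members are uncertain. Lyz1 was higher in tumor than in splenic CD45-positive cells (3.38 on the log2 scale, adjusted p = 0.000831), as Lyz2 was. Ly6c1 was at 61.1, 28.2 and 140 FPKM in splenic CD45-positive cells and at 10.6, 28.6, 30.1 and 32.1 FPKM in tumor, a difference of -1.38 that missed the threshold (adjusted p = 0.0644). Chil4, the near relative of Chil3, was at or below 0.06 FPKM in all libraries. Retnlg, a relative of Retnla made by neutrophil-lineage cells, was at 382, 470 and 1635 FPKM in splenic CD45-positive cells and at 38.7, 2.81, 1.98 and 2.74 FPKM in tumor (a difference of -6.70, adjusted p = 0.000549). Ly6g, the granulocyte antigen of the Ly6 family, fell by 6.25 in the same comparison (adjusted p = 0.00017).

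Among the other tetraspanins, Cd63 of lysosomes and exosomes was 4.22 higher in tumor than in splenic CD45-positive cells on the log2 scale (adjusted p = 2.5e-05) and Cd81 was 1.61 higher (adjusted p = 7.28e-05). Cd82 fell by 2.96 (adjusted p = 3.12e-06). In splenic CD45-negative cells Cd81 was at 44.7 to 98.2 times Cd9 and Cd63 at 0.487 to 2.24 times Cd9. Those ratios rest on few fragments, as Cd9 was at 0.640 to 1.13 FPKM and Cd63 at 0.550 to 2.06 FPKM there. In tumor Cd81 and Cd63 were at 0.676 to 1.08 and at 2.58 to 3.58 times Cd9. Of the other Ms4a genes, Ms4a6d was 6.25 higher in tumor than in splenic CD45-positive cells (adjusted p = 9.67e-05). In all, 27 of the 36 relatives were tested in that comparison, and 13 were higher, 10 lower and 4 not called.

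The wider monocyte list held 20 genes. Between the splenic groups 18 were tested and all 18 were higher in CD45-positive cells, 9 of which passed the filter through the CD45-positive libraries alone and could only be called higher. The largest difference was that of Itgam (5.30 on the log2 scale, adjusted p = 0.000253), the integrin chain CD11b. In tumor against splenic CD45-positive cells 14 of 20 were higher and 3 lower, with a median of 2.61. Fcgr1, the high-affinity IgG receptor CD64, was 5.33 higher (adjusted p = 0.000307) and Cx3cr1, the fractalkine receptor, was 4.18 higher (adjusted p = 0.000841). Ace, which marks nonclassical monocytes among other cells, fell by 2.84 (adjusted p = 0.0276), in the direction of Ly6c2. Against splenic CD45-negative cells all 19 genes tested were higher in tumor, but 10 of them passed the filter through the tumor libraries alone and could only be called higher, and 3 turned sign with scaling.

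The tissue macrophage list held 22 genes. Between the splenic groups 11 were tested, 6 were higher and 5 not called, and 2 of the 11 could only be called higher. Apoe, the lipid carrier, was at 3.48 (adjusted p = 0.0126) and Axl, a receptor for apoptotic cells, at 3.04 (adjusted p = 0.0314). In tumor against splenic CD45-positive cells all 22 were tested, 14 were higher, 1 lower and 7 not called, with a median of 3.78, and 3 could only be called higher. Spp1, the secreted protein osteopontin, was at 1730, 1549, 1562 and 1689 FPKM in tumor and at 2.16, 0.420 and 2.71 FPKM in splenic CD45-positive cells (9.32 higher, adjusted p = 3.95e-07). Folr2, a folate receptor of tissue macrophages, was 7.76 higher (adjusted p = 5.05e-07). Spic, the factor that directs the red pulp macrophages of the spleen, was the gene that fell, by 4.05 (adjusted p = 0.00597), from 77.9, 2.00 and 22.5 FPKM in splenic CD45-positive cells to at most 0.140 FPKM in tumor.

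In the lists of alternative and classical activation more genes were called higher than lower in tumor, though 1 and 3 of their genes could only be called higher and 2 and 1 only lower. Of the 16 alternative activation genes 14 were tested against splenic CD45-positive cells, and 9 were higher and 2 lower, with a median of 1.67. Arg1, which breaks down arginine, was at 792, 718, 745 and 698 FPKM in tumor and at 0, 0 and 0.03 FPKM in splenic CD45-positive cells (9.51 higher, adjusted p = 2.58e-08), so it sat with Mrc1 and apart from Chil3 and Retnla. Il1rn, the interleukin 1 receptor antagonist, was 5.20 higher (adjusted p = 1.09e-05), while the transcription factor Irf4 fell by 2.61 (adjusted p = 0.0112) and the lipoxygenase Alox15 by 1.38 (adjusted p = 0.0085). Of the 18 classical activation genes 17 were tested, and 13 were higher and 1 lower, with a median of 2.29. Cxcl10, an interferon-induced chemokine, was 6.05 higher (adjusted p = 1.63e-05) and Tnf 5.08 higher (adjusted p = 9.28e-05), and Il12a fell by 2.35 (adjusted p = 0.0027). Nos2, the inducible nitric oxide synthase, was at 5.51, 6.65, 6.62 and 6.02 FPKM in tumor, far below Arg1 in the same libraries.

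In tumor against splenic CD45-positive cells, Ace, Spic, Irf4, Alox15, Il12a and Lbp were below 1 FPKM in all tumor libraries, and Arg1 and Nos2 in all splenic CD45-positive libraries, so each could be called in 1 direction only. Between the splenic groups 6 of 7 alternative and 8 of 9 classical activation genes tested were higher in CD45-positive cells, and 4 genes of each list could only be called higher. The largest were Il4ra (3.34, adjusted p = 0.00329), a chain of the interleukin 4 receptor, Myc (3.10, adjusted p = 0.00104), the formyl peptide receptor Fpr2 (5.08, adjusted p = 0.000501) and Il1b (3.83, adjusted p = 0.00597). Il4ra was among the genes that passed the filter through the CD45-positive libraries alone.

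The partners of Cd14 in lipopolysaccharide sensing changed less evenly than Cd14. Of 12 genes of the TLR4 pathway, all tested against splenic CD45-positive cells, 5 were higher in tumor, 2 lower and 5 not called, with a median of 0.36. Nfkbia, the NF-κB inhibitor that is itself induced by the pathway, was 3.93 higher (adjusted p = 0.000302), Ly96, the TLR4 partner MD-2, was 2.56 higher (adjusted p = 0.00636) and Tlr4 was 1.99 higher (adjusted p = 0.00419). Lbp, the lipopolysaccharide-binding protein that loads CD14, fell by 2.56 (adjusted p = 0.000112) and the adaptor Tirap by 0.41 (adjusted p = 0.0272). Between the splenic groups 8 of the 10 tested were higher in CD45-positive cells and 2 were not called, and 4 of the 10 could only be called higher.

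Over the 10 libraries, the genes with the nearest profiles were sought among 11541 genes other than the members, by the root mean square difference of log2 values after each gene's mean was removed. Adgre1 and Mrc1 had the same 2 nearest genes, Cd300c2 (0.257 and 0.312) and Aif1 (0.314 for both), and lay 0.217 from each other. The nearest genes to Cd68 were C1qa (0.323), a chain of complement C1q, and Pltp (0.328). Ms4a7 lay nearest to the chemokine Cxcl16 (0.220) and the lipid receptor Trem2 (0.336), and Cd14 to Lgals1 (0.307) and the inhibitory IgG receptor Fcgr2b (0.373). Lyz2 lay nearest to Lyz1 (0.450) and S100a6 (0.460), and Ly6c2 to Ly6c1 (0.183) and C3 (0.337). Chil3 lay nearest to the neutrophil collagenase Mmp8 (0.451) and to Serpinb1a (0.536), and Cd9 to Anxa3 (0.245) and Cyba (0.296). Retnla had nearly no profile, and its nearest genes Map3k11 (0.242) and Kyat1 (0.244) describe flat genes. These distances rest on 3 groups of libraries, and tumor replicates 2 to 4 are close to repeats.

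Markers of other cells differed between the groups too, and in tumor against splenic CD45-positive cells 12 of 12 granulocyte, 8 of 8 B cell, 7 of 9 T and NK cell and 11 of 11 erythroid markers tested were called lower, as Chil3 and Ly6c2 were, while 7 members were higher. Of these, 1, 4, 3 and 6 markers were below 1 FPKM in all tumor libraries and could only be called lower. The summed FPKM of 12 granulocyte markers was 386 to 516 in splenic CD45-negative cells, 22900 to 76100 in splenic CD45-positive cells and 66.8 to 74.5 in tumor replicates 2 to 4, with 1730 in tumor replicate 1. All 12 were called higher in splenic CD45-positive than CD45-negative cells and all 12 lower in tumor than in splenic CD45-positive cells, the order of Chil3. Within the spleen 3 of the 12 could only be called higher. All 8 B cell markers had that order too. Within the spleen 8 of 9 T and NK cell and 7 of 7 eosinophil and basophil markers tested were higher. In tumor 7 of 8 eosinophil and basophil markers tested were lower, and 6 could only be called lower. Of the B cell, T and NK cell, and eosinophil and basophil markers, 2, 5 and 4 could only be called higher within the spleen. Over all genes tested 50.5% were higher within the spleen and 26.0% lower in tumor. Ngp fell by 10.1 (adjusted p = 0.000515) and Camp fell by 9.40 (adjusted p = 0.000538) on the log2 scale in tumor. The 8 B cell markers summed to 141 to 1290 FPKM in splenic CD45-positive cells and 5.93 to 7.65 FPKM in tumor, and the 10 T and NK cell markers to 59.4 to 357 and 6.03 to 44.7 FPKM. The 11 erythroid markers summed to 13000 to 13700 FPKM in splenic CD45-negative cells, 7230 to 7820 FPKM in splenic CD45-positive cells and 58.9 to 247 FPKM in tumor. In tumor the 9 epithelial and carcinoma markers summed to 312 to 406 FPKM, nearly all from Krt8 and Krt18, with 6 of the 9 below 1 FPKM in every tumor library. The 8 stroma markers summed to 144 to 207 FPKM in tumor. The part of these cells in the members' differences was not tested.

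**Figure D5:**
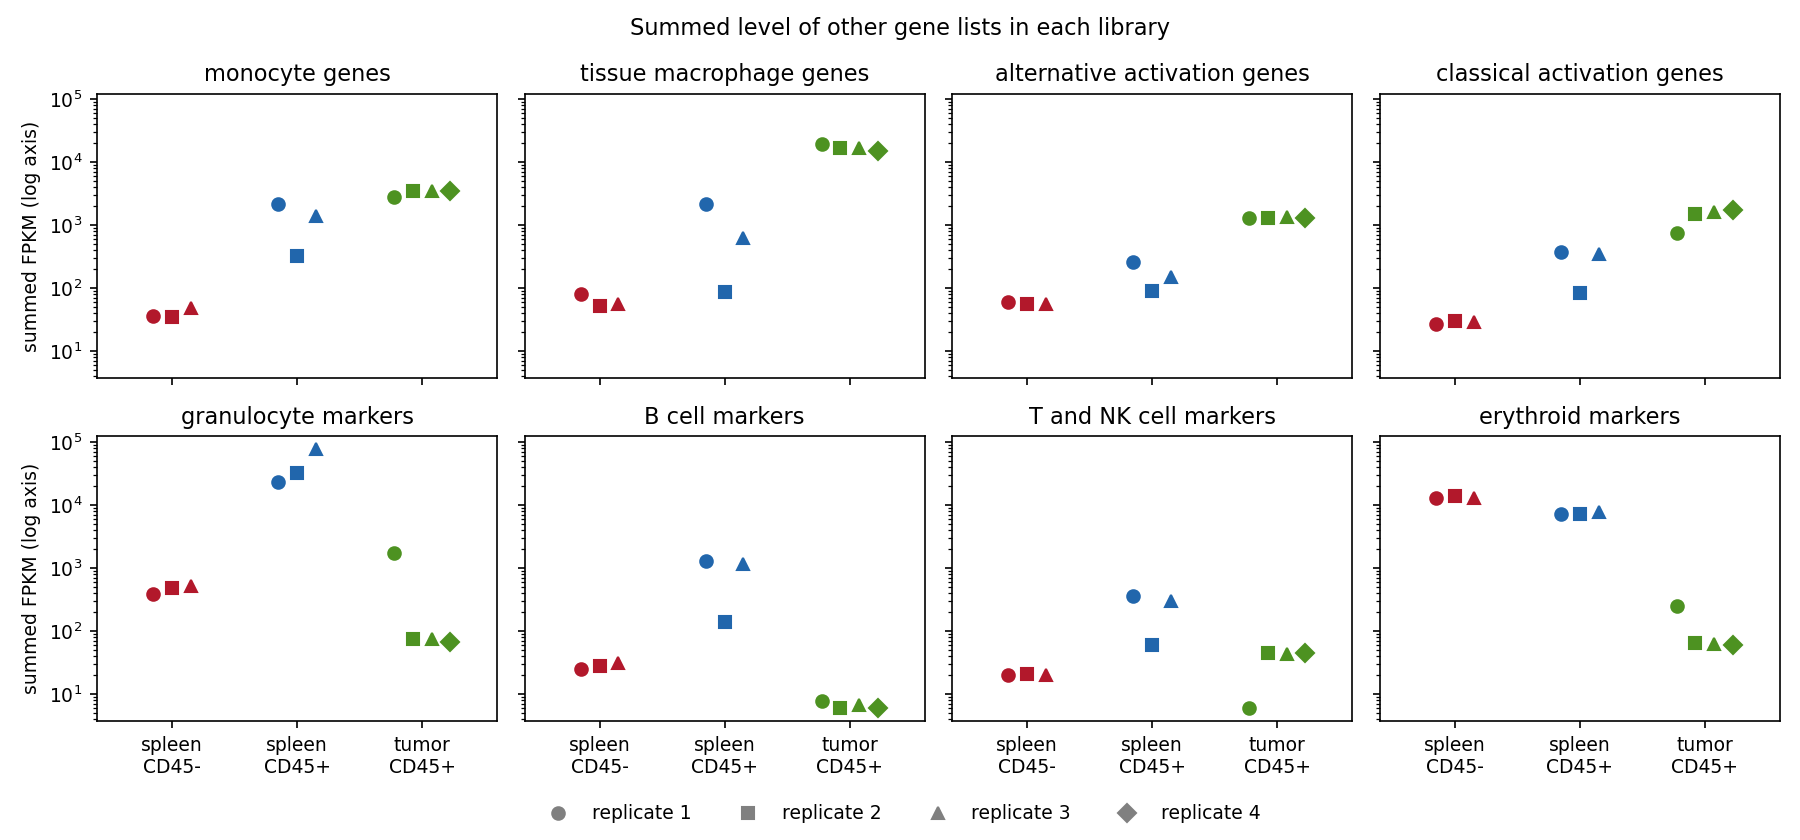
Summed FPKM of marker lists other than the members in each library, on a log axis. The granulocyte list falls from 22900 or more in splenic CD45-positive libraries to 66.8 to 1730 in tumor libraries, while the tissue macrophage list rises from at most 2160 to at least 15200.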

How the data were processed

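Messenger RNA was sequenced in 10 libraries, and the authors deposited 1 value per RefSeq mRNA model and library. Their unit, named in no header or label, was taken to be FPKM because these deposited values, multiplied by transcript length, summed to 971633 to 1174331 in every library over the 24850 models whose length was known. The submitters' processing notes name GRCm38.p6. The programs that aligned and quantified the reads, the annotation release and the filters were not given in the sources used here.

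Models of a gene, among them 1843 numbered copies, were summed to 17606 genes from 60177 models with a symbol; the other 1508 models took 0.425% to 1.06% of all FPKM. Comparisons used limma 3.58.1 in R 4.3.3 with an intensity trend on log2(FPKM + 1), without covariates. Genes needed 1 FPKM in at least 3 libraries compared, with Benjamini-Hochberg adjustment over all of these genes and a threshold of 0.05. A fold on this scale understates the change of low genes. The fits were tested on simulated data. Other steps used Python 3.11.15, pandas 2.3.3, numpy 2.4.6 and matplotlib 3.10.9. Alternatives covered scaling, pseudocount, filter, shared variance, replicate block, model summing and left-out libraries; 2 were added after the data were seen.

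The members and lists were chosen with earlier results of these data known. Named beside the members were the 2 genes with the nearest profiles, close relatives, and up to 2 called genes with the largest rise and fall per list and comparison. Tlr4 and Nos2 were named outside that rule, after their values were seen, and 1 gene that the rule names is not reported here.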

Additional observations from a re-analysis of the deposited data

Results flagged for a closer look

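In the group of 4 tumor libraries, 1 library stood apart from the other 3 for 21 of the 66 genes examined, where its gap to the nearest library, divided by the whole range, exceeded Dixon's critical value at the 95% level. Chance alone flags about 1 in 20 groups. In 20 of the 21 the library was tumor replicate 1.

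Among the members, tumor replicate 1 was lowest for Adgre1 at 179 FPKM (others 227 to 236), for Mrc1 at 239 FPKM (others 293 to 302) and for Ly6c2 at 20.7 FPKM (others 63.1 to 70.2). Tumor replicate 4 was lowest for Cd68 at 798 FPKM, with the others at 963 to 972 FPKM.

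Among the other genes named, replicate 1 was lowest for Ly6c1 at 10.6 FPKM (others 28.6 to 32.1), Nfkbia at 280 FPKM (568 to 577), Fcgr1 at 182 FPKM (257 to 266), Tnf at 69.5 FPKM (220 to 229) and Ms4a6c, a monocyte gene, at 447 FPKM (529 to 538). It was highest for Lyz1 at 2180 FPKM (623 to 717), Folr2 at 471 FPKM (316 to 329), Pf4 at 859 FPKM (593 to 609), Krt18 at 164 FPKM (95.4 to 105), Fcgr2b at 1640 FPKM (1320 to 1360), Trem2 at 717 FPKM (430 to 446), Apoe at 447 FPKM (191 to 199) and F13a1 at 346 FPKM (240 to 257). It was also highest for the granulocyte-lineage genes Retnlg at 38.7 FPKM (1.98 to 2.81), Ngp at 65.6 FPKM (0.12 to 0.25), Camp at 40.4 FPKM (0 to 0.11) and Ly6g at 3.82 FPKM (0 in each other library). The cause was not tested.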

How the results depend on the processing

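Of 483 alternative values of the members' tests, 456 kept their direction and their side of the threshold, 24 kept their direction but no longer passed it, and 3 turned, all for Chil3 in tumor against splenic CD45-negative cells: -0.40 with trimmed-mean scaling, -0.43 with median-ratio scaling and -0.10 without hemoglobin genes. The calls lost were those of Adgre1, Cd68 and Mrc1 between the splenic groups, Ly6c2 in tumor against splenic CD45-positive cells and Chil3 with all libraries in 1 fit.

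Members called higher between the splenic groups numbered 8, against 5 with median-ratio scaling and 5 to 8 with 1 library left out. Over all genes the counts were 4912 higher and 487 lower, against 2941 and 1730 with trimmed-mean scaling, 2527 and 2445 with median-ratio scaling, 2683 higher with a filter at 5 FPKM, 121 lower with a common sum and 877 lower without hemoglobin genes. With 1 library left out they ran from 2741 to 3910 higher and from 201 to 1418 lower. In tumor against splenic CD45-positive cells 2 members were called lower, against 1 without a filter, 1 with tumor replicates 2 to 4 averaged and 1 to 2 with 1 library left out. Over all genes 4327 were higher and 2985 lower, against 1912 and 1730 with those replicates averaged and 1964 lower with a common sum. Without both libraries that stand apart, 7 members were higher and 2 lower. In tumor against splenic CD45-negative cells 0 members were called lower, against 1 with trimmed-mean scaling and 1 with median-ratio scaling. Over all genes 7563 were higher and 2521 lower, against 4130 higher with the replicates averaged and 4709, 4803, 1593 and 3832 lower with trimmed-mean scaling, median-ratio scaling, a common sum and no hemoglobin genes. The averaging and the joint omission were chosen after seeing the data. The cause of these shifts was not tested.

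Whether the replicate numbers shared between groups pair the libraries could not be decided from the values. Same-numbered deviations correlated at 0.118, 0.085 and -0.015 between the splenic groups and at -0.175, -0.1 and -0.043 between splenic CD45-positive and tumor. Between splenic CD45-negative and tumor they correlated at 0.235, 0.095 and -0.023. Differently numbered libraries ran from -0.113 to 0.062, from -0.103 to 0.18 and from -0.317 to 0.251 in the same order, so the ranges overlapped. With the replicate block, which drops tumor replicate 4, 8 members were higher between the splenic groups, 7 higher and 2 lower in tumor against splenic CD45-positive cells and 9 higher against splenic CD45-negative cells. Over all genes the block gave 4444 higher and 407 lower, 3326 and 2244, and 7347 and 2573. Values below 1 FPKM, such as those of Retnla and splenic Ms4a7, rest on few fragments.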
